A study of Drosophila melanogaster with 8 samples.

Results

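Among the 14755 transcripts that the array names by a FlyBase identifier, 45 were bright in warmed fly heads after a rise of at least 4-fold. They were chosen by their measured values. A transcript was kept when each of the 4 activated arrays placed its probe well above background and when every activated array read above every control array. Its mean log2 signal also had to be at least 2 higher in activated than in control heads, and its activated mean at least 0. Signal is given throughout as log2 relative to the array's 75th percentile, so 0 is the value that 75% of probes did not exceed. A level is that of a probe, and probes differ in how well they bind, so levels are not ranked between transcripts. The difference between the groups thus chose the members and is described below without a test.

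RNA came from heads of adult Drosophila melanogaster of the genotype w, elav-GAL4/+; UAS-dTrpA1/+, reared at 23 °C. Both groups carried the driver and the channel. The 4 control_23C samples stayed at 23 °C, and the 4 activated_31C samples were held at 31 °C for 1 h and dissected at once. Each sample pooled 20 heads of males and females and was hybridised to its own 1-colour array. The study asked which genes respond to neural activity. The control arrays shared 1 slide and the activated arrays shared the other, so effects of slide and of group cannot be told apart. No sample had the warmth without the channel, so heat and activity cannot be told apart either.

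In this design the yeast activator GAL4 is made under the promoter of elav, a gene of neurons, and switches on the UAS-linked channel. TrpA1 is a cation channel of thermosensory neurons that opens with warmth and depolarises the cell that carries it. Calcium that enters an active neuron is known to switch on immediate early genes, many of which encode transcription factors. Warmth by itself is known to act through heat shock factor, which drives chaperone genes from low to very high output in most cell types.

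Between 21785 and 24237 of the 32162 probes were well above background on an array, with similar ranges in the groups. The number of arrays limits the precision of every value. Gene names could be read for few targets. The table of RefSeq genes paired 425 probes with 1 gene, 26 with several and 31711 with none. Of the 45 transcripts 44 could not be paired with a gene and are given by identifier, with no role. The other, FBtr0088611, is listed under 2 overlapping genes, as the upstream reading frame of CG45085 and the main reading frame of CG8026, and is assigned to neither. In a pool of heads, more RNA per cell and more cells of a type cannot be told apart. Of the fixed neuronal markers only the potassium channel genes Sh and slo could be named among the targets tested. Their activated means were 0.53 and −1.06. No marker of glia, photoreceptors, fat body or muscle could be named, and such markers may lie among the targets without a name.

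The conditions narrowed the transcripts in steps. A mean difference of at least 2 was met by 328 transcripts, of which 275 were also well above background on all activated arrays. The groups did not overlap in 148 of these, and 45 of the 148 had an activated mean of at least 0. A further 63 transcripts met every condition except the separation of the groups. In all 63 the lowest control array was replicate 3. The same held in 8 of the 45 members, or 17.8%, and in 13.3% of all targets tested.

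**Figure D1:**
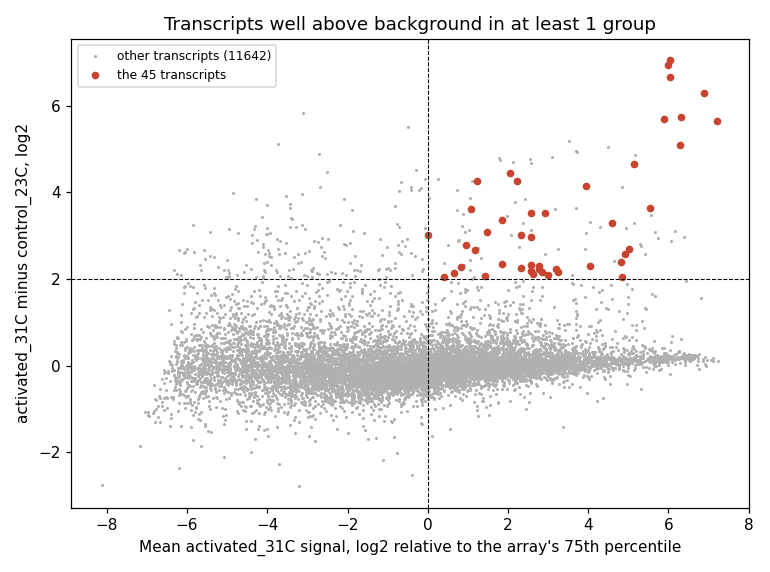
Difference between the groups (vertical axis, log2) against the mean activated_31C signal (horizontal axis, log2 relative to the array's 75th percentile) for transcripts that every array of 1 group or both placed well above background. The 45 members (red) lie above 2 and to the right of 0 (dashed lines). The 63 grey points in the same corner are transcripts whose groups overlapped.

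All 45 members were among the targets that limma called higher, as were 19.6% of the 17821 targets tested over the whole array. Every activated array lay above every control array in 19.2% of the targets tested. A difference of at least 2 together with that separation was found in 1.32%. The members were chosen on these same values, so nothing is read from their count. The median difference was 2.96 over the members and −0.0058 over all targets tested. At the edge of the rule, FBtr0073777, FBtr0082026 and FBtr0084554 stood just inside with differences of 2.04, 2.05 and 2.07. Just outside stood FBtr0088683 at 1.95, FBtr0087987 at 1.92 and FBtr0088815 at 1.86. By activated level, FBtr0073456 (0.018), FBtr0082026 (0.41) and FBtr0081969 (0.66) were the nearest inside. FBtr0086275 (−0.12), FBtr0080264 (−0.41) and FBtr0078415 (−0.41) were the nearest outside.

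All 45 members were well above background on all 4 control arrays too, so each had a measured level in the heads kept at 23 °C. On the activated side FBtr0082512 lay at the top of the scale, as given below. Their control means ran from −3.04 to 2.80 and were below 0 in 22 members. Their activated means ran from 0.018 to 7.22 and exceeded 4 in 16. The smallest gap between the lowest activated and the highest control array was 1.52, in FBtr0075773, and the largest was 6.28, in FBtr0082638. By size, 13 members differed by at least 4 log2 units, 9 by 3 to 4 and 23 by less than 3.

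**Figure D2:**
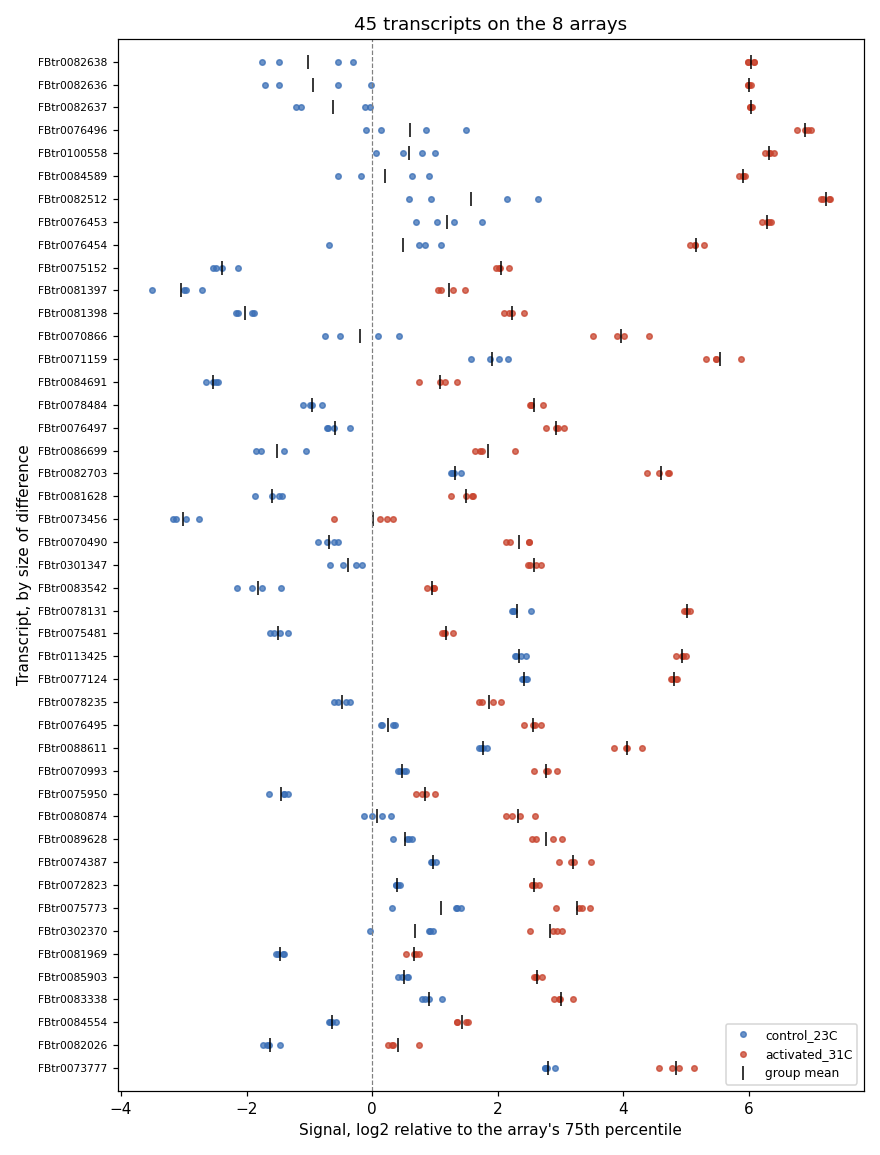
Signal of the 45 transcripts on the 4 control_23C (blue) and 4 activated_31C (red) arrays, log2 relative to the array's 75th percentile (dashed line at 0), ordered by the difference between the group means (black ticks). The upper 8 transcripts have widely scattered control points and tightly grouped activated points. Among them, the activated points of FBtr0082512 lie at the top of the scale.

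Among the probes used by the rule, the largest difference was that of FBtr0082638. Its control arrays read −0.55, −1.75, −1.49 and −0.30 and its activated arrays 5.98, 6.08, 6.08 and 5.99, in the order of the replicates. The control signals thus fell into a higher pair, replicates 1 and 4, and a lower pair, while the activated signals lay almost on top of each other. The difference was 7.06 (SE 0.317, n = 4 per group), which is 133-fold.

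The transcripts with the neighbouring identifiers behaved alike on every array. FBtr0082636 read −0.54, −1.71, −1.49 and −0.023 in control and 5.98, 6.03, 6.005 and 5.99 in activated heads, a difference of 6.94 (SE 0.355) or 123-fold. FBtr0082637 read −0.12, −1.21, −1.13 and −0.041 in control and 6.02, 6.02, 6.03 and 6.05 in activated heads, a difference of 6.66 (SE 0.282) or 101-fold. Each had 1 probe, and the files do not say whether these probes can bind each other's RNA. The 3 rises are therefore not taken as independent of each other.

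FBtr0076496 read 0.86, −0.10, 0.13 and 1.49 on the control arrays and 6.77, 6.99, 6.89 and 6.94 on the activated ones. Control replicates 1 and 4 were again the higher pair. The difference was 6.30 (SE 0.326), or 78.8-fold. FBtr0100558 had controls at 0.79, 0.066, 0.49 and 1.00 and activated arrays at 6.25, 6.39, 6.34 and 6.32, a difference of 5.73 (SE 0.186) or 53.2-fold. FBtr0084589 had controls at 0.63, −0.54, −0.18 and 0.91 and activated arrays at 5.85, 5.94, 5.91 and 5.90, a difference of 5.69 (SE 0.304) or 51.8-fold. In each the lowest activated array stood more than 4 log2 units above the highest control.

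FBtr0082512 read 2.15, 0.59, 0.93 and 2.63 in control heads and 7.18, 7.27, 7.14 and 7.28 in activated heads. Its raw signal on the activated arrays was between 653842 and 655148 intensity units. This was 100% of the brightest spot of the array on replicate 1 and 99.9985% on each of the others. On the control arrays it was between 1.08% and 4.26% of the brightest spot. The scanner software flagged none of its spots as saturated. It flagged no spot on any activated array, although between 5 and 13 spots there lay in the same top band. A signal at the top of the scale can have been higher, so the difference of 5.64 (SE 0.436) is read as at least 49.97-fold. The raw signal of FBtr0076496 reached 88.4% of the brightest spot and that of FBtr0076453 69.1%, and the other members stayed at 63.0% or less.

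FBtr0076453 had controls at 1.31, 0.70, 1.04 and 1.75 and activated arrays at 6.20, 6.35, 6.29 and 6.31, and rose by 5.09 (SE 0.201), or 34.1-fold. FBtr0076454, the next in number, was represented by a probe with controls at −0.68, 0.74, 1.09 and 0.84 and activated arrays at 5.06, 5.14, 5.28 and 5.14. Here control replicate 1 was the low array. The difference was 4.66 (SE 0.360), and its other probes read otherwise, as given below.

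The other 4 members above 4 log2 units each had groups more than 3 log2 units apart at their nearest arrays. FBtr0075152 read −2.14, −2.53, −2.49 and −2.39 in control and 1.97, 2.18, 2.04 and 2.02 in activated heads, a 21.7-fold difference (log2 4.44, SE 0.0923). FBtr0081397 read −3.51, −2.96, −2.99 and −2.71 against 1.47, 1.05, 1.29 and 1.10 (4.27, SE 0.174). FBtr0081398 read −1.92, −2.15, −2.17 and −1.88 against 2.41, 2.18, 2.23 and 2.09 (4.26, SE 0.0944). The last pair bear consecutive identifiers and both read highest on activated replicate 1, an array on which most members read lowest. FBtr0070866 was the most variable of these, with controls at −0.52, 0.087, −0.75 and 0.43 and activated arrays at 3.51, 4.41, 3.89 and 4.01 (4.15, SE 0.295).

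Between 3 and 4 log2 units stood 9 members. FBtr0071159 rose from a control mean of 1.91 ± 0.25 (SD, n = 4) to 5.54 ± 0.24, which is 12.4-fold. FBtr0084691 went from −2.53 ± 0.088 to 1.08 ± 0.25 (12.2-fold), FBtr0078484 from −0.96 ± 0.13 to 2.57 ± 0.10 (11.5-fold) and FBtr0076497 from −0.60 ± 0.17 to 2.93 ± 0.11 (11.5-fold). Of these, FBtr0071159 and FBtr0084691 had the widest activated arrays. FBtr0086699 went from −1.52 ± 0.37 to 1.84 ± 0.29, FBtr0082703 from 1.31 ± 0.069 to 4.60 ± 0.16 and FBtr0081628 from −1.59 ± 0.19 to 1.49 ± 0.16. FBtr0070490 went from −0.69 ± 0.14 to 2.33 ± 0.19. FBtr0073456 had the widest activated arrays of all 45 members, at −0.62, 0.33, 0.12 and 0.24, against controls of −3.01 ± 0.19. Its activated mean of 0.018 met the level of the rule only narrowly.

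Of the 23 members below 3 log2 units, several changed little from array to array. FBtr0072823 had the smallest control SD of the members, with controls at 0.42, 0.44, 0.37 and 0.38 and activated arrays at 2.54, 2.65, 2.59 and 2.55, a 4.53-fold difference (log2 2.18, SE 0.0408). FBtr0077124 was nearly as tight, with 2.38, 2.40, 2.46 and 2.46 against 4.76, 4.86, 4.84 and 4.77 (2.38, SE 0.0420). The arrays of each group lay close together in both transcripts. FBtr0078131 (2.70), FBtr0113425 (2.58) and FBtr0073777 (2.04) started from control means of 2.31, 2.34 and 2.80. They ended at 5.01, 4.93 and 4.83.

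FBtr0088611, the transcript listed under both CG45085 and CG8026, had controls at 1.82, 1.70, 1.77 and 1.74 and activated arrays at 3.86, 4.30, 4.03 and 4.05. The difference was 2.30 (SE 0.0892), or 4.93-fold, and the groups stood 2.03 apart at their nearest arrays. The largest differences of this band were those of FBtr0301347, at 2.96 (SE 0.114), and FBtr0083542, at 2.78 (SE 0.136). They were 2.68 for FBtr0075481, 2.34 for FBtr0078235, 2.32 for FBtr0076495, 2.30 for FBtr0070993 and 2.28 for FBtr0075950. They were 2.25 for FBtr0080874, 2.24 for FBtr0089628 and 2.24 for FBtr0074387. For FBtr0081969, FBtr0085903 and FBtr0083338 they were 2.13, 2.12 and 2.10. FBtr0084554 and FBtr0082026 closed the list near the threshold. Of these, FBtr0083542, FBtr0075950, FBtr0081969 and FBtr0082026 had activated means under 1.

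By the probes used, FBtr0075773 and FBtr0302370 had nearly the same shape over the 8 arrays. FBtr0075773 read 0.31, 1.36, 1.41 and 1.33 in control and 2.93, 3.47, 3.35 and 3.29 in activated heads. FBtr0302370 read −0.032, 0.92, 0.97 and 0.90 against 2.51, 3.03, 2.94 and 2.87. Both were low on replicate 1 of either group, and their deviations from the group means differed by at most 0.070 on any array. The differences by these probes, 2.16 (SE 0.259) and 2.15 (SE 0.239), depended on control replicate 1. Without it they were 1.89 and 1.91 and below the threshold of the rule. The further probe of FBtr0075773 did not show this low array, with controls at −3.77, −3.83, −3.63 and −3.75. It read −1.72, −1.665, −1.64 and −1.77 in activated heads, a difference of 2.05. FBtr0302370 had 1 probe.

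The rule took no account of the order of arrays within a group, and here the members split. In 8 members control replicates 1 and 4 both read above replicates 2 and 3 with a range over 0.9. These were FBtr0082638, FBtr0082636, FBtr0082637, FBtr0076496, FBtr0100558, FBtr0084589, FBtr0082512 and FBtr0076453, the 8 with the largest differences by the probes used, of which that of FBtr0082512 is a lower bound. That is 17.8% of the members, against 0.915% of all targets tested. Of these 8, FBtr0082638, FBtr0082636 and FBtr0082637 are not taken as independent of each other, as given above. Without the condition on the range, the order held in 14 members, or 31.1%, against 14.6% of all targets tested. The order and the range were both defined after their values were seen and are a description. The 8 had control SDs between 0.41 and 0.97 and activated SDs between 0.015 and 0.092. FBtr0082512 lay at the top of the scale on the activated arrays, so its activated SD of 0.069 may be narrowed by the scale. The other 37 had a median control SD of 0.13 and a median activated SD of 0.15, so no such contrast was seen over them as a whole.

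**Figure D3:**
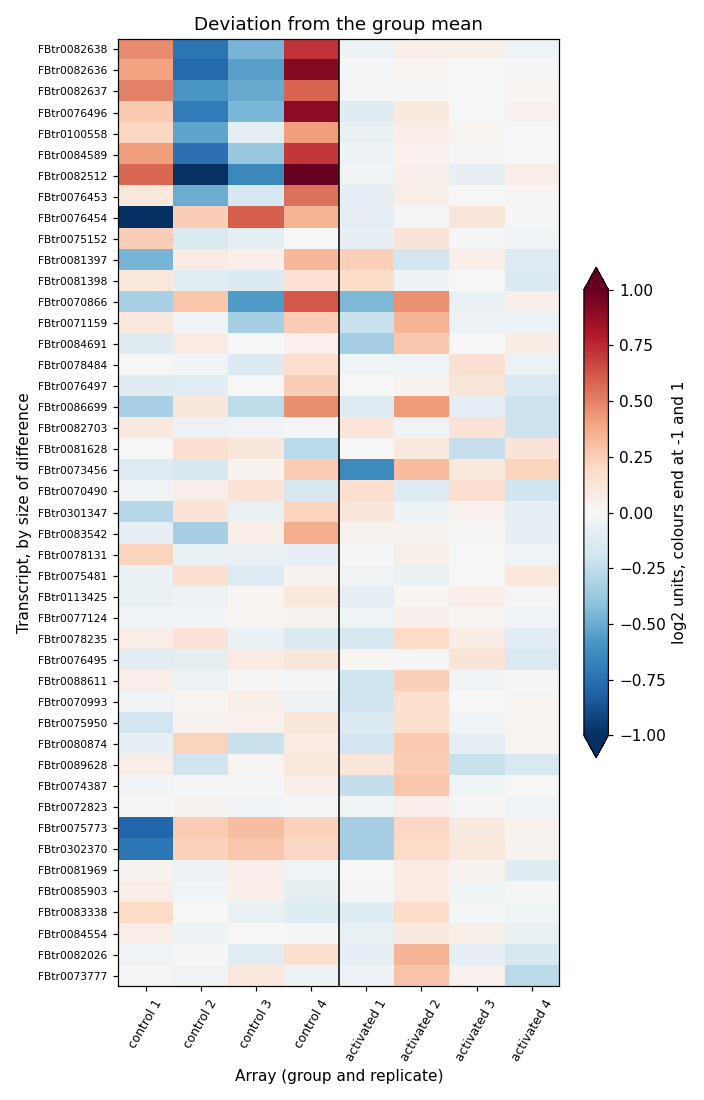
Deviation of each array from its group mean, in log2 units (red above, blue below, colours end at −1 and 1), for the 45 transcripts in order of difference. The upper 8 rows are red on control 1 and 4 and blue on control 2 and 3, and many of the lower rows are blue on activated 1 and red on activated 2.

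The dosage compensation RNAs lncRNA:roX1 and lncRNA:roX2, which are made in males, moved the opposite way over the controls. All 4 of their measured targets, 2 for each gene, read lower on control replicates 1 and 4 than on 2 and 3. The 2 targets of a gene are not taken as independent, and the share of all targets with this order is not given here. For lncRNA:roX1 the target NR_002098 read 3.25, 3.70, 3.71 and 2.85 on the control arrays and 4.39, 3.505, 3.79 and 3.099 on the activated ones. Summed over the 4 targets, the signal ran from 10.8 to 20.2 times the 75th percentile in control heads and from 13.5 to 33.5 times in activated heads. Of the activated arrays, replicate 1, the lowest in 24 members, had the highest sum. The lowest sum was on replicate 4 and not on replicate 2, the highest in 31 members. The shares of all targets with these lowest and highest arrays are given below. The part of the sexes in the spread of the members was not tested. None of these 4 targets passed the threshold between the groups (limma adjusted p between 0.147 and 0.437, n = 4 per group).

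In the activated arrays the members shared another order. Replicate 2 was the highest in 31 of the 45 members, or 68.9%, against 34.5% of all targets tested. Replicate 1 was the lowest in 24, or 53.3%, against 26.7%. Both held in 22 members, or 48.9%, against 15.7% of all targets tested. Transcripts of nearly the same shape, such as FBtr0075773 and FBtr0302370, are counted separately in this share. The size of this order varied among the members. In FBtr0070866 replicate 2 stood 0.90 above replicate 1, in FBtr0084691 0.61 and in FBtr0071159 0.56, but in FBtr0082636 only 0.052, in FBtr0077124 0.095 and in FBtr0072823 0.11. Replicate 2 read above the group mean by a median of 0.082 over the members and of 0.026 over all targets. On the control side replicate 4 was the highest in 25 members, against 32.1% of all targets, and its median deviation was 0.12 against 0.020. The cause of these orders was not tested.

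**Figure D4:**
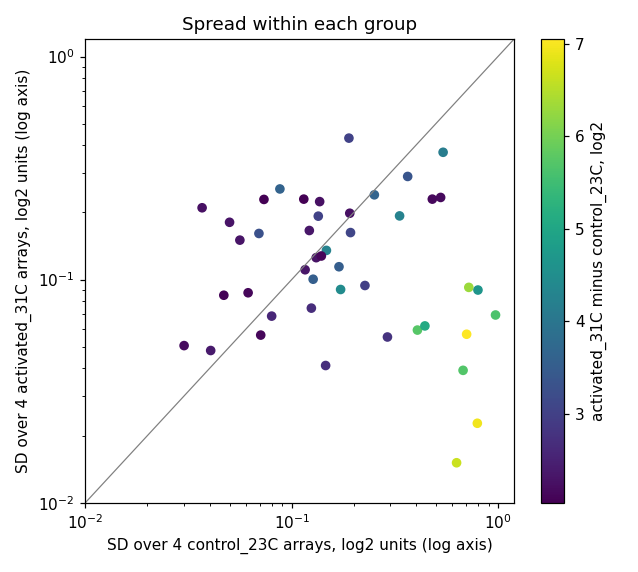
SD over the 4 control_23C arrays (horizontal) against SD over the 4 activated_31C arrays (vertical), both in log2 units on log axes, for the 45 transcripts, coloured by the difference between the groups. The line marks equal SDs. The transcripts with the largest differences lie at the lower right, with control SDs between 0.41 and 0.97 and activated SDs under 0.1. Among them FBtr0082512 lay at the top of the scale on the activated arrays, which may narrow its activated SD.

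The control SD was the larger in 29 members and the activated SD in 16. The median control SD was 0.15 over the members and 0.10 over all targets tested. The median activated SD was 0.11 and 0.10. Apart from the 8 transcripts above, a control range over 1 was found in FBtr0076454, FBtr0070866 and FBtr0075773. FBtr0100558 is one of the 8, with a range of 0.94. No member had an activated range over 1. A fold change against the scattered controls is accordingly less precise. When each array was left out in turn the difference of FBtr0082512 ran from 5.31 to 5.996 and that of FBtr0082636 from 6.69 to 7.25, while that of FBtr0077124 ran from 2.37 to 2.40. The range of FBtr0082512 is that of a lower bound, and its further probe differed by 7.58. The range of FBtr0077124 is that of the probe used, and its further probes differed by 2.86 and 2.80.

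Further probes of the same transcript were not used by the rule, but come from the same samples and contrast and are likewise given without a test. They existed for 16 members, 26 in all, and all 26 were well above background on every activated array with groups that did not overlap. Of these, 24 differed by at least 2 and 21 lay within 0.5 of the probe used. Over all targets tested, by the probe with the highest mean, the groups did not overlap in 19.2%. Together with a difference of at least 2 this held in 1.32%. The further probes belong to transcripts chosen for such a rise, so nothing is read from their counts. The 3 further probes of FBtr0081628 read 3.01, 3.09 and 3.14 against 3.08 for the probe used. Those of FBtr0081397 read 4.29 and 4.29 against 4.27, but the second was well above background on only 1 of the 4 control arrays. Those of FBtr0078484 3.54 and 3.505 against 3.53. The probes of FBtr0081628 and FBtr0078484, all well above background on every array, thus gave nearly the same difference. A further probe of FBtr0080874, well above background on 3 of the 4 control arrays, read 1.802 against 2.25. The further probe of FBtr0073456 was not well above background on any control array, so its rise is known only as a bound and is counted here at its fitted value.

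**Figure D5:**
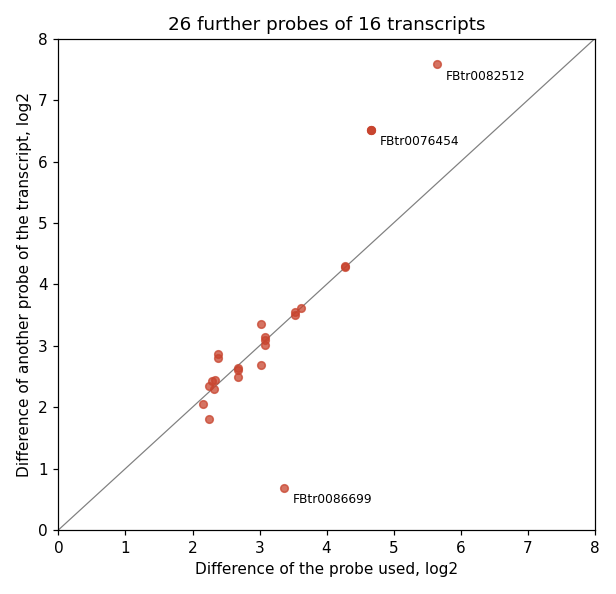
Difference between the groups for each of the 26 further probes (vertical, log2) against that of the probe used for the same transcript (horizontal, log2), for 16 transcripts. The line marks equality. The 3 labelled transcripts lie more than 1 log2 unit off it, and the 3 probes of FBtr0076454 coincide at 6.51 to 6.52.

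For 3 members the probes disagreed by more than 1 log2 unit. The 3 further probes of FBtr0076454 differed by 6.51, 6.52 and 6.52, against 4.66 for the probe used. On the control arrays the first of them read −0.76, −1.67, −1.55 and −0.60, with replicates 1 and 4 the higher pair as in the 8 leading members, which the probe used did not show. The further probe of FBtr0082512 read −3.97, −4.80, −4.04 and −2.63 in control and 3.76, 3.67, 3.96 and 3.51 in activated heads. It differed by 7.58, against 5.64 for the probe used. The further probe of FBtr0086699 differed by 0.68 against 3.36, from a control mean of −2.93 to an activated mean of −2.25. For this transcript the 4-fold rise rests on 1 probe.

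Outside the FlyBase identifiers, 9 targets met the same values, of which 2 could be named with no overlapping gene in the table. The long non-coding RNA lncRNA:alphagamma-element:CR32865, transcribed at a heat shock locus, read −3.93, −4.20, −4.04 and −3.97 in control and 0.23, 0.041, 0.24 and −0.023 in activated heads. CG7130, a gene of the heat-inducible list, read −2.06, −2.20, −2.20 and −1.87 against 1.32, 1.30, 1.52 and 1.23. In both, control replicates 1 and 4 were above 2 and 3, an order found in 14.6% of all targets tested, but without the wide range of the 8 transcripts above. Neither had replicate 2 as its highest activated array.

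The fixed gene lists could be read only in small part. A gene counts here as measured when a tested target could be paired with its name. The others may lie among the targets without a name. Of 24 heat-inducible genes 4 were measured and all 4 were higher, of 11 constitutive chaperone genes 1 was measured and higher, and of 20 activity-regulated candidates 1 was measured and higher. Of 11 neuronal markers 2 were measured and 1 was lower. Of the 2 male-specific RNAs both were measured and neither passed. These counts use limma at an adjusted p of 0.05, at which 19.6% of all targets were called higher, and so few genes give no result about a list.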

How the data were processed

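Cy3-labelled RNA of 8 samples was hybridised to 1-colour Agilent arrays. The deposited scanner files hold each spot's processed intensity, background-corrected by the authors' Agilent Feature Extraction, version 10.7.3.1 per the file headers and 9.1.3.1 per the submitters' processing notes. The authors' deposited table holds log2 values centred per probe. Its column medians were −0.0621 to 0.0378. Its differences between arrays followed those of the scanner values (Pearson's r over probes 0.983 to 0.993 per array). The sources used here do not name its baseline. In all 45 members its lowest activated and highest control values lay equally far from 0 on either side. Centring on the median of the 8 arrays gives this where the groups do not overlap. Control spots and 559 outlier spots were left out. The log2 processed intensities were averaged per probe, the 75th percentile of the array was subtracted, and the probe with the highest mean stood for its target. Targets well above background on all 4 arrays of a group were fitted with limma 3.58.1 in R 4.3.3 (two-sided, Benjamini-Hochberg), which was tested on simulated data.

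Members and gene lists were chosen with earlier results of these data known. Named transcripts are those with a gene symbol, the 10 with the largest difference, the 10 with the highest activated level, those at the edges of the rule, those whose probes disagree by over 1 log2 unit and those with an outlying array. The others are named so that every member is accounted for. The labels do not say that pools came from separate cultures, so p-values measure only the spread between these samples. Alternatives were the centring, background correction, spot handling, thresholds, choice of probe, replicate block and leaving out arrays. The planned normexp correction used the median signal, because the mean signal is not among the columns. Promoters and proteins were not analysed here.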

Additional observations from a re-analysis of the deposited data

Results flagged for a closer look

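Of 90 groups of 4 arrays, 1 per member and condition, 5 held an array far from the others by Dixon's ratio, where chance flags about 1 in 20, or 4.5. In control heads FBtr0078131 read 2.53 on replicate 1 and 2.23 to 2.25 on the others, a ratio of 0.938. By the probe used, FBtr0075773 read 0.31 on control replicate 1 and 1.33 to 1.41 on the others, a ratio of 0.931. Its further probe did not show this, as given above. FBtr0302370 read −0.032 on the same array and 0.90 to 0.97 on the others, a ratio of 0.93. In activated heads FBtr0078484 read 2.72 on replicate 3 and 2.51 to 2.53 on the others, a ratio of 0.903. FBtr0082026 read 0.75 on activated replicate 2 and 0.25 to 0.32 on the others, a ratio of 0.857.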

How the results depend on the processing

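The rule kept between 36 and 60 transcripts over its alternatives, against 45. With spike-in centring it kept 52 (42 shared), with quantile normalization 43, with normexp correction 43 and with a difference of at least 2.2, 36. Leaving out 1 array gave 44 to 60, with 60 without activated replicate 3 (44 shared) and 53 without activated replicate 2 (42 shared). The median difference of the members ran from 2.81 to 3.00 over the settings and from 2.87 to 2.97 with 1 array left out. Of 810 recomputed differences of single members 788 moved by no more than 1 SD, 22 moved further and 0 reversed, the lowest being 1.85. Over all targets 7896 were called. With spike-in centring 4412 were called (1621 higher, 2791 lower) and with quantile normalization 8101 (2761 higher, 5340 lower), against 3497 higher and 4399 lower. Leaving out 1 array gave 6833 to 7579. Without control replicates 3 and 4 and activated replicate 3, an alternative chosen after seeing the data, 4379 were called and the rule kept 51 (44 shared). The cause of these moves was not tested. Fits with arrays left out also rest on fewer samples. Same-numbered arrays correlated at 0.20, 0.080, 0.66 and −0.28, and differently numbered arrays at −0.66 to 0.48. The highest value was that of the arrays numbered 3. The labels give no pairing, and none was used in the main fit. With the replicate block 7088 targets were called (3150 higher, 3938 lower), all 45 members among those higher, and the median difference was 2.96. The slide as a block was not run, because 0 slides held both groups.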
